A study of Mus musculus with 6 samples.

Results

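The genes described here build and define the lysosome: the subunits of its proton pump (the vacuolar H+-ATPase), the cathepsins, which are its best known proteases, and the Lamp proteins of its membrane. They were taken by name from the deposited table, as all rows whose symbol starts with Atp6v or Atp6ap, is Cts followed by 1 letter, or is Lamp followed by a digit. This gave 48 of the 21900 genes listed: 26 pump and accessory genes, 18 cathepsins and 4 Lamps. RNA had been sequenced from inguinal white adipose tissue, the subcutaneous fat of the groin, of C57BL/6 mice aged 2 months that were fed chow at 22 °C and then kept at 4 °C for 7 days. The 3 knockout samples carry the genotype Foxp4AdipoQdelta/delta, in which the forkhead factor gene Foxp4 is deleted by a Cre under the adiponectin promoter, whose activity marks mature fat cells. The label of the 3 controls is Foxp4fl/fl, the floxed gene without mention of Cre, so Cre and the loss of Foxp4 cannot be told apart. The other cells of the tissue keep their Foxp4, and the labels do not say whether a sample is 1 mouse or a pool.

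The proton pump has a peripheral V1 sector, which hydrolyses ATP in the cytosol, and a membrane V0 sector, which carries protons into the lumen. The acid activates the cathepsins, which cut proteins delivered by endocytosis and autophagy. Every nucleated cell has lysosomes, so most of these genes are widely expressed, but macrophages are rich in several cathepsins, and cathepsin S is known as a protease of antigen-presenting cells.

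Libraries held 13182519 to 16000925 reads on annotated genes, as recovered from the deposited FPKM (reads scaled to exon length and to the depth of the library). Foxp4 stood at 1.92, 1.71 and 1.64 FPKM in the knockouts, against 5.76, 4.01 and 4.62 FPKM in the controls. Differences were fitted with limma on log2(FPKM + 1) over 10787 genes that averaged at least 1 FPKM in either group. At an adjusted p of 0.05 only 1 gene passed (0.00927%), the myoglobin gene Mb, and 2601 genes had an unadjusted p under 0.05. The middle fold change of the 10787 genes was -0.08 on the log2 scale (-0.01 with libraries rescaled by the median of ratios). Of these genes 66.0% had a negative fold change, and 52.8% after that rescaling. The summed FPKM of 10 markers of mature adipocytes was 9822 to 10829 in knockouts and 12508 to 13790 in controls, all 10 present. Most of that gap lay in 1 gene, Cfd (adipsin), at 4022, 3569 and 4409 FPKM in knockouts and 5796, 6621 and 6070 FPKM in controls. The median log2 fold change of the 10 was -0.14 (-0.06 after median-of-ratios scaling), and in limma 1 had an unadjusted p under 0.05 upward and 3 downward. In whole tissue, fewer cells of a type and less RNA per cell cannot be told apart.

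Of the 48 genes, 31 were tested and 17 were not, 7 of those because they were listed at 0 in every library. None of the 31 passed an adjusted p of 0.05 (0.00927% of all genes did), with adjusted p between 0.070 and 0.96 in limma. At an unadjusted p of 0.05, 6 were higher in the knockouts (19.4% of 31, against 6.98% of all genes tested) and 5 lower (16.1%, against 17.1%). The knockouts and controls did not overlap in 7 higher and 7 lower genes (22.6% each), where 8.48% and 22.7% of all genes did so. After median-of-ratios scaling 9 genes were higher (29%, against 12% of all genes) and 3 lower (9.68%, against 10.5%) at an unadjusted p of 0.05. With that scaling the groups did not overlap in 10 higher genes (32.3%, against 15.2%) and 3 lower (9.68%, against 14.1%). Without knockout replicate 2, in FPKM as deposited, the counts at an unadjusted p of 0.05 were 2 higher (6.45%, against 3.73% of all genes) and 3 lower (9.68%, against 10.2%). The classes differed in sign. Of the 18 pump and accessory genes tested 5 were higher and 0 lower by that rule, of the 11 cathepsins 1 was higher and 5 lower, and of the 2 Lamps neither.

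**Figure D1:**
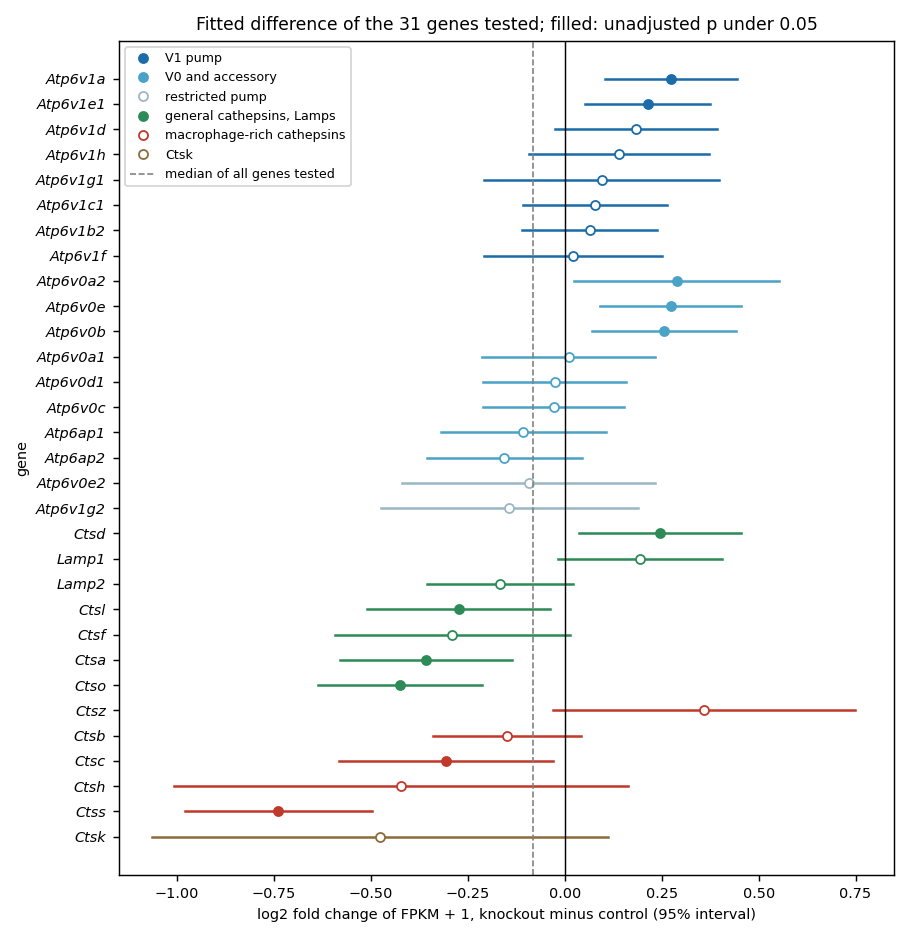
Fitted log2 fold change of FPKM + 1, knockout minus control, for the 31 genes tested, by class from pump to cathepsins; points are estimates, bars 95% intervals, and filled points have an unadjusted p under 0.05 in limma. Colours mark the classes, and the dashed line the median of all genes tested. All 8 ubiquitous V1 subunits lie right of 0, while Ctss has the most negative estimate at -0.74.

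Many lysosomal genes carry a so-called CLEAR element before their start, a palindrome of letters around CACGTG that the factor TFEB and its relatives bind. Promoters of 250 bases before to 50 bases after the start were taken from RefSeq (GRCm38.p6, the assembly behind mm10). They were found for 24 of the 31 genes tested; Atp6v0a2, Atp6v1b2, Atp6v1c1, Atp6v1g1, Atp6v1h, Ctsb and Ctsh had no entry. The letters TCACGTG, which contain CACGTG, were searched on both strands. They were held by 7 of the 24 (29.17%), against 7.27% of 8601 tested genes with an entry and 4.29% of all 27025 genes. The palindrome TCACGTGA was held by 5 of the 24 (20.83%), against 2.26% of the tested genes. A longer form, with G before and C after it, was held by 0 of the 24, against 0.81% of the tested genes. CACGTG alone stood in 9 of the 24 (37.5%), against 12.07%, the added genes being Ctsf and Ctsl.

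The stretches around the match nearest the start site are shown for those 7 genes, since 5 of them had positive fold changes between 0.19 and 0.27. They are printed on the strand of the gene, with capitals for TCACGTG or its reverse complement. The positions are chr16:44139358-44139417 (minus strand) for Atp6v1a, chr17:26676372-26676431 (plus) for Atp6v0e and chr4:117887316-117887375 (minus) for Atp6v0b. For the pump gene Atp6v0d1 the position is chr8:105566035-105566094 (minus). Those of the other genes are chr7:142387893-142387952 (minus) for Ctsd, chr8:13159116-13159177 (plus) for Lamp1 and chr2:164833751-164833810 (plus) for Ctsa, at the second of its annotated starts.
Atp6v1a: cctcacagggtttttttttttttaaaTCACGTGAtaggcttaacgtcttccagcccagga
Atp6v0e: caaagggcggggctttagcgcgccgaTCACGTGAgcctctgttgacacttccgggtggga
Atp6v0b: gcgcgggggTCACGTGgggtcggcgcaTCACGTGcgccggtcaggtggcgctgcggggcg
Atp6v0d1: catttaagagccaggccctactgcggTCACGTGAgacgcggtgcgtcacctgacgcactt
Ctsd: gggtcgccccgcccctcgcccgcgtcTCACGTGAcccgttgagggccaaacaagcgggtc
Lamp1: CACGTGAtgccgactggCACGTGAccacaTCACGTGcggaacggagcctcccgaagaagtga
Ctsa: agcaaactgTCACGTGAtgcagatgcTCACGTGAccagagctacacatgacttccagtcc

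In the whole window Lamp1 held the letters at 4 places, Atp6v0b, Ctsd and Ctsa at 2 each, and the other 3 genes at 1. The remaining 2 genes with the letters were Atp6v0d1, with a log2 fold change of -0.03, and Ctsa, with -0.36. Among the tested genes without a match in these windows were Atp6v1e1, Atp6v1d, Ctsz, Ctss and Ctso. Over all tested genes the median log2 fold change was -0.08 in the 625 genes that held TCACGTG and -0.08 in the 7976 that did not, and 7.04% and 7.08% of them were higher at an unadjusted p of 0.05. Of the factors themselves, Tfeb averaged 3.24 ± 0.317 FPKM in knockouts and 3.45 ± 0.765 FPKM in controls (SD, n = 3). Tfe3 averaged 4.45 ± 0.248 FPKM in knockouts and 4.64 ± 0.655 FPKM in controls (SD, n = 3). Both pairs overlapped. Mitf, a relative of Tfeb, was lower in every knockout, at 1.42, 1.36 and 1.87 FPKM against 3.59, 3.19 and 3.03 FPKM in controls. Its log2 fold change was -0.75 (adjusted p = 0.070 in limma).

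All 8 ubiquitous subunits of the V1 sector had higher means in the knockouts, by 1.01 to 1.22 times, and 2 of them reached an unadjusted p of 0.05. Atp6v1a, the catalytic A subunit, stood at 29.2, 30.6 and 27.5 FPKM in knockouts, against 23.9, 23.7 and 24.0 FPKM in controls. The groups lay apart, with the controls close to each other. The log2 fold change was 0.27 (SE 0.07, unadjusted p = 0.0065, adjusted p = 0.10 in limma). Atp6v1e1, a subunit of the peripheral stalk, had 43.4, 44.1 and 42.3 FPKM in knockouts and 38.1, 37.3 and 36.1 FPKM in controls, also apart. The fitted difference was 0.21 on the log2 scale (SE 0.07, unadjusted p = 0.016 in limma). That p was 0.053 without knockout replicate 1 and 0.056 without knockout replicate 2, in limma.

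Atp6v1d, of the rotating central stalk, had 19.2, 19.8 and 16.4 FPKM in knockouts and 16.3, 16.3 and 15.8 FPKM in controls. The groups were apart, though knockout replicate 3 lay just above the highest control. Its log2 fold change of 0.18 had an unadjusted p of 0.076, which was 0.017 without that library and 0.019 after median-of-ratios scaling, in limma. With any other library left out p was 0.12 to 0.23 in limma. The other 5 overlapped: the means of Atp6v1h, Atp6v1c1, Atp6v1b2, Atp6v1g1 and Atp6v1f were 14.0, 12.5, 28.9, 82.5 and 43.0 FPKM in knockouts, against 12.6, 11.8, 27.6, 77.4 and 42.4 FPKM in controls. Among V1 genes the level per length was highest for Atp6v1g1, a stalk subunit, and lowest for Atp6v1c1, which links the stalks, and for Atp6v1h, the regulatory subunit. The median log2 fold change of the 8 was 0.12.

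The V0 and accessory genes were split, with 4 of 8 above 0 and 4 below and a median log2 fold change of -0.01, which was 0.07 with 6 above 0 after median-of-ratios scaling. Atp6v0e, a small membrane subunit, stood at 34.5, 35.2 and 31.02 FPKM in knockouts, against 27.1, 27.5 and 28.1 FPKM in controls. Every knockout was above every control, and the log2 fold change was 0.27 (SE 0.08, unadjusted p = 0.0093, adjusted p = 0.12 in limma). Atp6v0b, a proteolipid of the rotor ring, had 22.5, 25.7 and 22.6 FPKM in knockouts and 19.5, 19.4 and 19.7 FPKM in controls, again apart, and shares 243 exon bases with Gm12841 on the opposite strand. The log2 fold change was 0.26 (SE 0.08, unadjusted p = 0.013 in limma). In limma, the unadjusted p was 0.050 without knockout replicate 2.

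Atp6v0c, which encodes the main proteolipid of the same ring, showed no such gap. It had 15.4, 14.3 and 13.4 FPKM in knockouts and 14.6, 14.3 and 15.0 FPKM in controls, a log2 fold change of -0.03 (95% interval -0.21 to 0.15). Its level is uncertain, because 2 annotated copies by that name can share its reads. Atp6v0d1, which joins ring and central stalk, was as even, at 57.6, 52.2 and 53.4 FPKM in knockouts and 55.9, 52.8 and 57.4 FPKM in controls. The accessory gene Atp6ap1, which helps to assemble V0, averaged 39.4 ± 2.81 FPKM in knockouts and 42.5 ± 3.14 FPKM in controls (SD, n = 3). Atp6ap2, the prorenin receptor, had 14.3, 14.5 and 16.5 FPKM in knockouts and 16.2, 16.6 and 17.9 FPKM in controls. These groups overlapped, and the log2 fold change of -0.16 had an unadjusted p of 0.11, and of 0.049 without knockout replicate 3, in limma. With any other library left out p was 0.10 to 0.28 in limma.

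The a subunit of V0, which forms the proton path and sets where the pump is placed, comes in isoforms, and their mix differed. Atp6v0a1 was even, at 16.5, 14.8 and 17.6 FPKM in knockouts and 17.6, 15.1 and 15.8 FPKM in controls. Atp6v0a2, an isoform known from the Golgi and endosomes, had 13.9, 15.0 and 11.5 FPKM in knockouts and 10.98, 9.86 and 11.6 FPKM in controls, with 1 knockout just below the highest control. It shares 663 exon bases with 4930404A12Rik on the opposite strand. The difference was 0.29 on the log2 scale (SE 0.11, unadjusted p = 0.036 in limma). When knockout 1 or knockout 2 was left out, p was 0.10 and 0.12 in limma. When control 1 or control 2 was left out, it was 0.064 and 0.11 in limma.

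Tcirg1 encodes the a3 isoform of osteoclasts and macrophages, and its symbol keeps it out of the 48. It stood at 7.01, 5.68 and 6.44 FPKM in knockouts and 8.98, 7.76 and 11.2 FPKM in controls, without overlap (log2 fold change -0.47, unadjusted p = 0.0094 in limma). Of the summed FPKM of the isoforms, chosen for comparison after values were seen, Tcirg1 held 18.7, 16.0 and 18.1% in knockouts and 23.9, 23.7 and 29.0% in controls. Atp6v0a2 held 37.2, 42.3 and 32.3% in knockouts and 29.2, 30.1 and 30.1% in controls. The share of Atp6v0a1 averaged 45.1% in knockouts and 44.6% in controls, with overlap. Atp6v0a4, the kidney isoform, had 0 to 2 reads per knockout library and 1 read per control library.

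**Figure D2:**
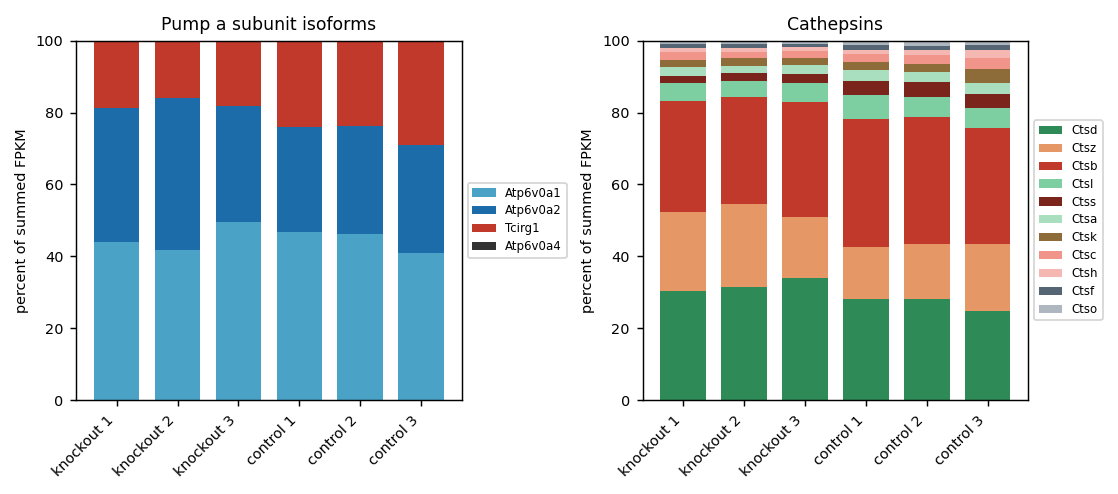
Left, percent of the summed FPKM of the pump a subunit genes held by each isoform; right, percent of summed cathepsin FPKM held by each of the 11 cathepsins tested; 1 bar per library, knockouts to the left of controls. Tcirg1 holds 16.0 to 18.7% in knockouts and 23.7 to 29.0% in controls, and Ctsd, Ctsb and Ctsz make up most of the cathepsin sum in every library.

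The Lamps are heavily glycosylated proteins that line the inner face of the lysosomal membrane, and the 2 that are widely expressed differed in sign. Lamp1 stood at 181, 176 and 156 FPKM in knockouts, against 145, 147 and 156 FPKM in controls. The groups all but touched, since knockout replicate 3 and control replicate 3 were alike. The log2 fold change was 0.19 (SE 0.09, unadjusted p = 0.068 in limma). In limma p was 0.033 without knockout replicate 3 and 0.013 after median-of-ratios scaling. With any other library left out p was 0.071 to 0.21 in limma. Lamp1 shares exon bases with Grtp1 on the opposite strand, itself at 3.34 FPKM in knockouts and 2.55 FPKM in controls. Lamp2, whose splice form Lamp2a serves chaperone-mediated autophagy, had 28.2, 28.2 and 26.0 FPKM in knockouts and 29.3, 30.4 and 33.1 FPKM in controls. Every knockout was lower in FPKM as deposited, with a log2 fold change of -0.17 (SE 0.08, unadjusted p = 0.074 in limma). After median-of-ratios scaling that of Lamp2 was -0.09 (unadjusted p = 0.27 in limma). Per length, Lamp1 was the more abundant in each library. Lamp3, of mature dendritic cells, had 6 reads in 1 knockout library and none elsewhere, and Lamp5, of neurons, 1 read in 1 control library.

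In FPKM as deposited the cathepsins as a family held a nearly constant sum: 925, 946 and 915 FPKM in knockouts and 916, 912 and 948 FPKM in controls. That evenness depends on scaling. The median-of-ratios factors, by which FPKM is divided, were 0.952 to 0.991 in knockouts and 0.994 to 1.07 in controls. That scaling therefore raises the knockout sums relative to the control sums. Of the 11 cathepsins tested 9 had negative fold changes, also after median-of-ratios scaling, where 66.0% and 52.8% of all genes did. Ctsd and Ctsz, which are abundant, had positive ones. The median log2 fold change of the 11 was -0.31, against -0.08 for the 10787 genes. By level per length Ctsd, Ctsb and Ctsz led, averaging 297, 286 and 192 FPKM in knockouts and 250.2, 318 and 149 FPKM in controls. They held 31.99, 30.9 and 20.6% of the cathepsin sum in knockouts and 27.1, 34.4 and 16.1% in controls. The ratio of Ctsb to Ctsd, chosen after values were seen, was 1.02, 0.947 and 0.933 in knockouts and 1.27, 1.24 and 1.30 in controls. It was lower in every knockout, and Ctsb stood below Ctsd in knockouts 2 and 3 only.

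**Figure D3:**
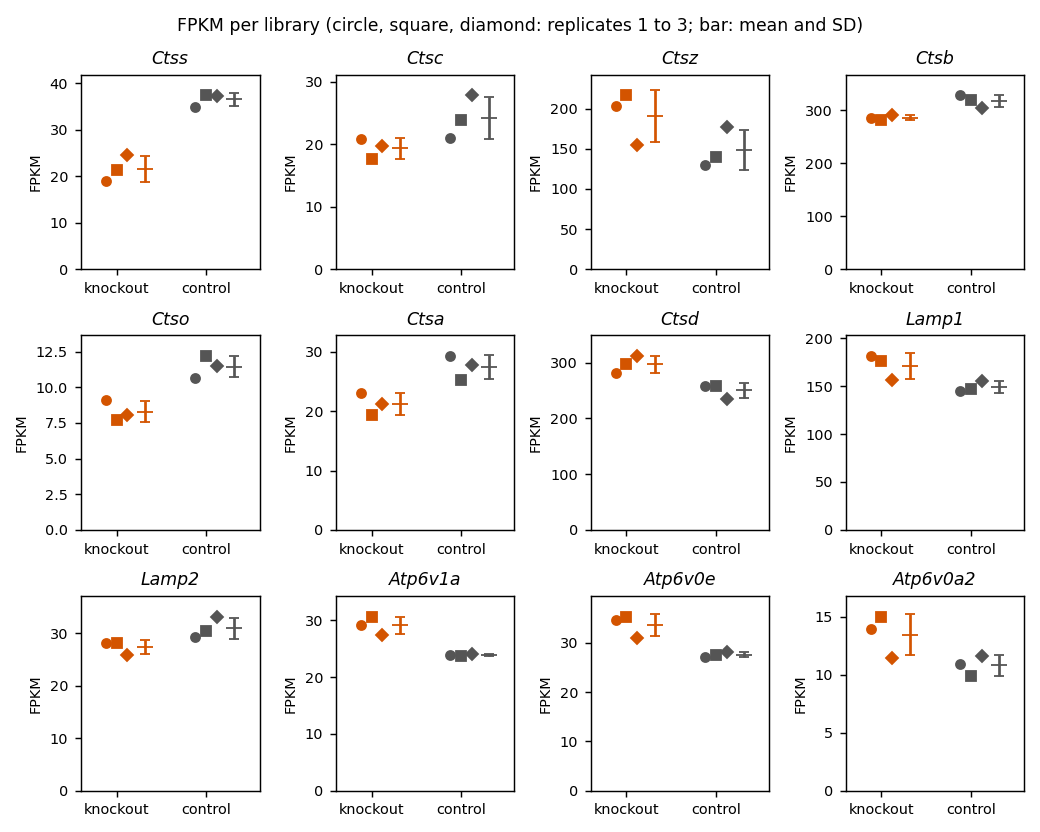
FPKM in each library for 12 genes, knockouts left of controls in each panel; symbols mark replicates 1 to 3 and the bar beside them the mean and SD. Ctss, Ctso and Ctsa are lower in all knockouts, Ctsd, Atp6v1a and Atp6v0e higher in all, and Ctsz and Atp6v0a2 overlap.

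Among cathepsins that most tissues express, Ctsd stood apart from the others. Ctsd, an aspartic protease and the classic enzyme marker of lysosomes, had 281, 298 and 312 FPKM in knockouts, against 258, 257 and 235 FPKM in controls. All knockouts were above all controls, and the log2 fold change was 0.25 (SE 0.09, unadjusted p = 0.027, adjusted p = 0.16 in limma). In limma, p was 0.073 and 0.092 with knockout 2 or knockout 3 left out, and 0.091 with control 3 left out. The annotation holds a gene on the same strand, Gm49369, that shares 808 exon bases with Ctsd, and how reads there were counted is not stated.

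The other 4 general cathepsins had lower values. Ctso, a little studied cysteine cathepsin, stood at 9.12, 7.70 and 8.03 FPKM in knockouts, against 10.7, 12.2 and 11.5 FPKM in controls, without overlap. Its log2 fold change was -0.42 (SE 0.09, unadjusted p = 0.0020, adjusted p = 0.082 in limma), the second smallest p of the 31 genes. Ctsa, the protective protein that shields beta-galactosidase and neuraminidase in their complex, had 23.1, 19.4 and 21.3 FPKM in knockouts and 29.3, 25.3 and 27.8 FPKM in controls. These groups were apart too, with a log2 fold change of -0.36 (SE 0.09, unadjusted p = 0.0065 in limma). Ctsa shares 495 exon bases with Pltp on the opposite strand, itself at 48.4 ± 5.87 FPKM in knockouts and 65.6 ± 6.55 FPKM in controls (SD, n = 3), and whether strand was kept in counting is not stated.

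Ctsl, a broad cysteine protease, had 45.6, 41.0 and 49.0 FPKM in knockouts and 60.3, 51.9 and 52.2 FPKM in controls. The groups did not overlap, and the log2 fold change was -0.27 (SE 0.10, unadjusted p = 0.029 in limma). In limma, p was 0.065 with knockout 1 left out, 0.11 with knockout 2 left out and 0.085 with control 1 left out. It was 0.11 after median-of-ratios scaling. Ctsl shares 1742 exon bases with Gm47123 on the opposite strand, so its level has the same doubt as that of Ctsa. Ctsf had 10.4, 10.4 and 8.55 FPKM in knockouts and 12.9, 10.1 and 13.6 FPKM in controls, with overlap (unadjusted p = 0.058 in limma). That p was 0.0083 without control replicate 2 and 0.072 to 0.18 with any other library left out, in limma. Over the 5 general cathepsins with Lamp1 and Lamp2 the median log2 fold change was -0.27.

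The 5 cathepsins classed here as rich in macrophages differed in sign. Ctss (chromosome 3, 95526786 to 95556403, plus strand, mm10), which trims the invariant chain before antigen is loaded on MHC class II, stood at 19.0, 21.2 and 24.6 FPKM in knockouts, against 35.0, 37.4 and 37.3 FPKM in controls. The gap between the groups was wider than the spread within either. These values rest on 382 to 505 reads per knockout library and 669 to 816 per control library. The knockout mean was 0.591 times the control mean, and the log2 fold change was -0.74 (SE 0.10, 95% interval -0.98 to -0.50, unadjusted p = 0.00016, adjusted p = 0.070 in limma). It ranked 18 among the 10787 genes by p. In fits without 1 library it lay between -0.83 and -0.65.

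Ctsc, which activates the serine proteases of granules, had 20.8, 17.6 and 19.7 FPKM in knockouts and 21.1, 23.8 and 27.8 FPKM in controls. The groups were narrowly apart, with a log2 fold change of -0.31 (SE 0.12, unadjusted p = 0.034 in limma). In limma, p was 0.12 and 0.064 with knockout 2 or knockout 3 left out, and 0.064 and 0.095 with control 2 or control 3 left out. It was 0.071 after median-of-ratios scaling. Ctsb, a cysteine protease found in nearly every cell and high in macrophages, had 286, 282 and 290.5 FPKM in knockouts and 328, 320.2 and 305 FPKM in controls. In FPKM as deposited it was lower in every knockout but by little, with a log2 fold change of -0.15 (SE 0.08, unadjusted p = 0.11 in limma). After median-of-ratios scaling the log2 fold change was -0.07 (unadjusted p = 0.50 in limma). Ctsb shares 774 exon bases with Fdft1 on the opposite strand, itself at 14.6 FPKM in knockouts and 21.6 FPKM in controls.

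Ctsh, an aminopeptidase, was uneven among controls: 10.4, 10.5 and 8.81 FPKM in knockouts and 9.06, 13.4 and 20.3 FPKM in controls. Its log2 fold change of -0.42 had an interval of -1.01 to 0.16 and an unadjusted p of 0.13 in limma. That p was 0.0076 without control replicate 1 (log2 fold change -0.69) and 0.18 to 0.40 with any other library left out, in limma. Without control replicate 3 the log2 fold change was -0.15. Ctsz, a carboxypeptidase, went the other way from the rest of its class. It had 203, 217 and 155 FPKM in knockouts and 130.1, 139.6 and 177 FPKM in controls, so that knockout replicate 3 lay below control replicate 3. The log2 fold change was 0.36 (SE 0.17, unadjusted p = 0.066 in limma). In limma, p was 0.016 and 0.018 with either of these libraries left out, and 0.021 after median-of-ratios scaling. With any other library left out p was 0.15 to 0.20 in limma.

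Ctsk, the collagen-cutting cathepsin of osteoclasts that fibroblasts and adipocytes also make, had 16.5, 19.97 and 17.1 FPKM in knockouts and 19.6, 20.5 and 39.3 FPKM in controls. Control replicate 3 stood far above the other 5 libraries, and without it the log2 fold change was -0.16, against -0.48 with it. Without control replicate 1 it was -0.65, at an unadjusted p of 0.045 in limma. That p was 0.098 with all libraries and 0.063 to 0.20 with any other library left out, in limma. The summed FPKM of 7 progenitor and fibroblast markers was 479, 447 and 350 in knockouts and 363, 449 and 934 in controls, so the same library was highest there too. Ctsh was also highest in that library. The part of these cells in Ctsk and Ctsh was not tested.

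**Figure D4:**
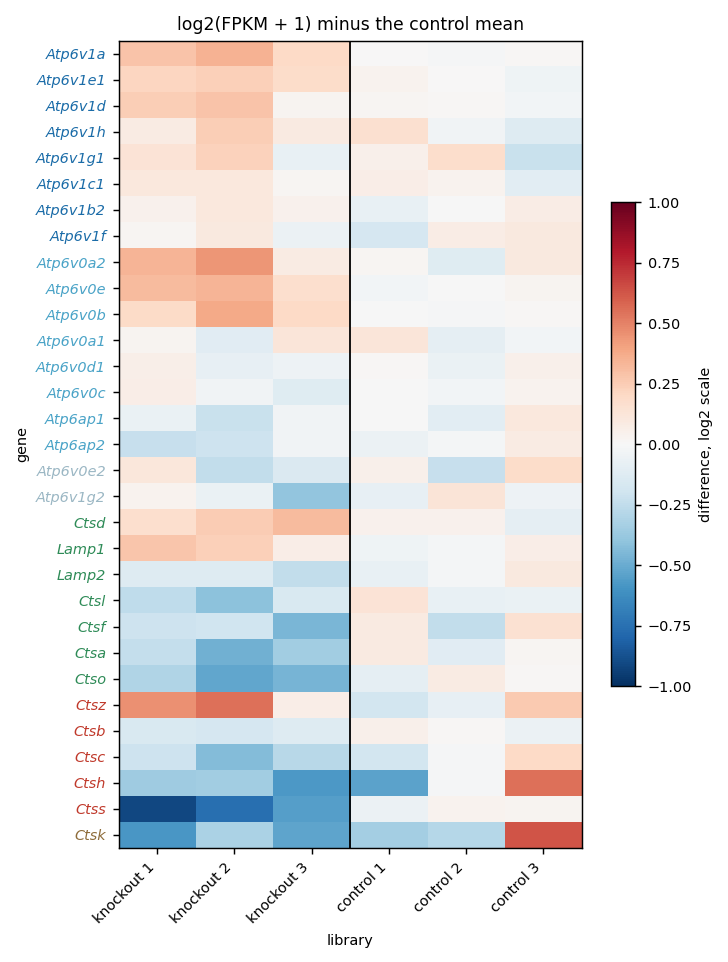
log2(FPKM + 1) of each gene tested minus its control mean, by library, knockouts left of controls; red is higher and blue lower, and the colour of a name marks its class as in the plot of fold changes. Knockout replicates 1 and 2 are the reddest for Atp6v1a, Atp6v0e and Ctsz, and control replicate 3 is the reddest for Ctsh and Ctsk.

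To set a macrophage-rich cathepsin against general lysosome genes inside each library, where library scaling drops out, 5 ratios of FPKM were compared. Over whole classes the median log2 fold changes were close, at -0.31 for the 5 macrophage-rich cathepsins and -0.27 for the 7 general cathepsins and Lamps. The general genes used below Ctss (Lamp1, Ctsd and Atp6v1a) all had positive fold changes, while 5 of those 7 (Ctso, Ctsa, Ctsf, Ctsl and Lamp2) had negative ones. Ctss over Lamp1 was 0.105, 0.121 and 0.158 in knockouts and 0.241, 0.255 and 0.239 in controls. Ctss over Ctsd was 0.0678, 0.0713 and 0.0789 in knockouts and 0.136, 0.145 and 0.158 in controls. Ctss over Atp6v1a was 0.651, 0.695 and 0.894 in knockouts and 1.46, 1.58 and 1.55 in controls. In each of these the knockouts lay wholly below the controls, by 0.96, 1.01 and 1.05 on the log2 scale. Each had p = 0.10 in an exact two-sided permutation test, the smallest that 3 against 3 allows, and 0.167 adjusted over the 5 ratios. These 3 ratios share Ctss and so are not separate results, and the genes were chosen with earlier results of these data known.

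The other 2 ratios overlapped. Ctsd over Lamp1, both general, was 1.55, 1.69 and 2.00 in knockouts and 1.78, 1.75 and 1.51 in controls (exact permutation p = 0.90, 0.90 adjusted). Ctss over Adgre1, the gene of the macrophage surface marker F4/80, was 2.901, 2.98 and 3.54 in knockouts and 4.54, 3.78 and 2.54 in controls (exact permutation p = 0.60, 0.75 adjusted). Ctsz over Adgre1, added after values were seen, was 30.98, 30.5 and 22.3 in knockouts and 16.9, 14.1 and 12.1 in controls, with no overlap and in the opposite sense to Ctss over Lamp1.

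**Figure D5:**
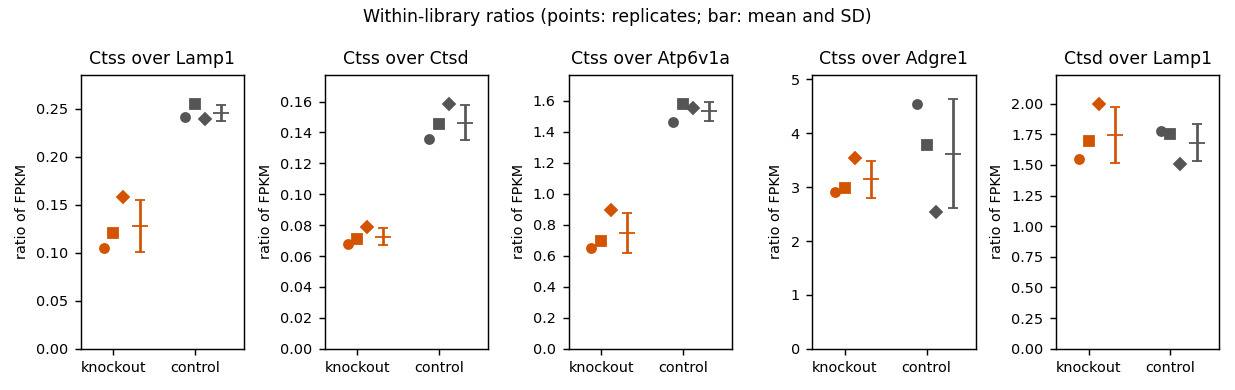
Ratio of FPKM within each library for the 5 ratios, knockouts left of controls; symbols mark replicates 1 to 3, and bars the mean and SD. The 3 ratios of Ctss to a general lysosome gene are apart, at 0.105 to 0.158 in knockouts and 0.239 to 0.255 in controls for Lamp1, while Ctss over Adgre1 and Ctsd over Lamp1 overlap.

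Macrophage markers had lower values in the knockouts as well. All 14 on the list were detected and tested, 13 of them were lower at an unadjusted p of 0.05 in limma (12 after median-of-ratios scaling), and their median log2 fold change was -0.60. Their summed FPKM was 266, 268 and 312 in knockouts and 382, 433 and 544 in controls, without overlap. Of lysosomal genes that macrophages are rich in, all 8 had negative fold changes, with a median of -0.43, and 5 were lower at an unadjusted p of 0.05. Among all genes tested 66.0% had negative fold changes and 17.1% were lower by that rule. Cd68, the macrosialin gene and a close relative of the Lamps, stood at 11.5, 15.0 and 16.1 FPKM in knockouts and 24.5, 21.0 and 27.2 FPKM in controls. Adgre1 averaged 6.87 ± 0.285 FPKM in knockouts and 10.8 ± 3.58 FPKM in controls, and Lyz2, lysozyme, averaged 164 ± 34.3 FPKM in knockouts and 266 ± 27.5 FPKM in controls (SD, n = 3). The part of macrophages in the values of Ctss, Ctsc and Tcirg1 was not tested.

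Of markers of other cells that could carry these genes, those of neutrophils and mast cells, pooled, had sums that did not overlap either. These were 38.3 to 41.3 FPKM in knockouts and 47.0 to 70.8 FPKM in controls. Singly, 2 of the 7 tested were apart, both lower in knockouts, where 22.7% of all genes were apart in that direction. The mast cell genes Mcpt4, Cma1 and Cpa3 each overlapped. The pooled sum does not tell these cell types apart. All 7 tested had negative fold changes (66.0% of all genes did), with a median of -0.47 on the log2 scale. In limma 3 had an unadjusted p under 0.05, all of these downward, where 17.1% of all genes did. After median-of-ratios scaling 2 did, against 10.5% of all genes. The part of these cells in the values of Ctss and Ctsc was not tested. Those of B and T lymphocytes summed to 1.83 to 4.07 FPKM in knockouts and 2.67 to 4.38 FPKM in controls, those of dendritic cells to 2.95 to 3.94 and 3.06 to 5.09 FPKM in that order, and those of NK cells to 0.621 to 1.37 and 0.774 to 1.34 FPKM. Skeletal muscle markers summed to 18.5, 88.8 and 274 FPKM in knockouts and 60.9, 14.6 and 41.8 FPKM in controls. The erythroid sum was 512 to 977 FPKM in knockouts and 884 to 1771 FPKM in controls, the endothelial sum 63.8 to 77.7 and 58.4 to 110 FPKM in that order, and the epithelial sum 0.122 to 0.462 and 0.243 to 1.13 FPKM.

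Most lysosomal hydrolases outside the 48 genes had lower values. Of 33, all tested, 28 had a negative fold change (66.0% of all genes did), with a median of -0.15 on the log2 scale against -0.08. After median-of-ratios scaling 24 did (52.8% of all genes), with a median of -0.07 against -0.01. In limma 14 had an unadjusted p under 0.05 downward and 1 upward, where 17.1% and 6.98% of all genes did. After median-of-ratios scaling these counts were 8 and 1, against 10.5% and 12% of all genes. Glb1, beta-galactosidase, averaged 4.87 ± 0.419 FPKM in knockouts and 7.34 ± 0.340 FPKM in controls. Ids, which degrades heparan and dermatan sulfate, averaged 7.23 ± 0.235 FPKM in knockouts and 9.98 ± 0.954 FPKM in controls. Asah1, acid ceramidase, averaged 21.3 ± 0.582 FPKM in knockouts and 26.9 ± 1.18 FPKM in controls, and Naglu, another heparan sulfate enzyme, 9.17 ± 1.05 FPKM in knockouts and 12.2 ± 0.381 FPKM in controls (SD, n = 3). None of the 33 passed over all genes tested.

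Genes of lysosomal membrane proteins and transport had a median log2 fold change of -0.10 over 18 tested, close to the -0.08 of all genes. In limma 3 had an unadjusted p under 0.05 downward and 0 upward, where 17.1% and 6.98% of all genes did. The downward count was thus near the share of all genes. Cd63, a tetraspanin of late endosomes, had 29.4, 28.6 and 26.1 FPKM in knockouts and 39.1, 38.0 and 35.1 FPKM in controls. Of 6 genes that sort enzymes to lysosomes 2 were lower and 0 higher by the same rule, and none in either direction after median-of-ratios scaling. These were Igf2r, the mannose 6-phosphate receptor, at 9.37 ± 0.992 FPKM in knockouts and 11.4 ± 0.240 FPKM in controls, and Sort1, sortilin, at 48.0 ± 1.43 FPKM in knockouts and 61.6 ± 10.1 FPKM in controls (SD, n = 3).

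Of 9 tested genes of pump assembly 1 was higher and 1 lower: Tmem199, an assembly factor of V0, averaged 10.5 ± 0.671 FPKM in knockouts and 8.48 ± 1.04 FPKM in controls, and Rogdi, of the complex that reattaches V1, averaged 5.21 ± 0.126 FPKM in knockouts and 7.00 ± 0.867 FPKM in controls (SD, n = 3). Among 8 tested regulators of lysosomal genes 1 was higher and 1 lower. The counts of both lists are by an unadjusted p under 0.05 in limma, where 6.98% of all genes were higher and 17.1% lower. Mitf, a relative of Tfeb active in osteoclasts, mast cells and macrophages, had 1.42, 1.36 and 1.87 FPKM in knockouts and 3.59, 3.19 and 3.03 FPKM in controls (log2 fold change -0.75, adjusted p = 0.070 in limma). Mtor, the kinase that holds Tfeb in the cytosol, had 19.0, 23.7 and 20.03 FPKM in knockouts and 15.4, 16.6 and 16.8 FPKM in controls. The cathepsin inhibitor genes Cst3 and Cstb averaged 369 and 68.2 FPKM in knockouts, against 417 and 73.8 FPKM in controls, neither at an unadjusted p under 0.05.

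Isoforms limited to particular cells were near the lower end of detection. Atp6v0d2, the d isoform of osteoclasts and some macrophages, had 5 to 12 reads per knockout library and 15 to 41 per control library. It stood at 0.124, 0.250 and 0.292 FPKM in knockouts and 1.07, 0.378 and 0.457 FPKM in controls, apart but below the filter in both groups, so it was not tested. Atp6v1b1, of kidney and inner ear, had 0 reads in the knockouts and 2 to 4 per control library. Atp6v0e2 and Atp6v1g2, known from the nervous system, passed the filter, with 3.79 and 0.900 FPKM in knockouts and 4.12 and 1.09 FPKM in controls, and overlapped. Ctsw, of NK and cytotoxic T cells, had 10 to 20 reads per knockout library and 10 to 25 per control library. Ctse had 3 to 7 and 6 to 18 in that order, and Ctsg, of neutrophils and mast cells, 2 reads in 1 control library alone. Atp6v1c2 averaged 0.481 FPKM in knockouts and 0.435 FPKM in controls, and Atp6v1g3 had 3 reads in 1 knockout library. The genes listed at 0 throughout were Ctsj, Ctsm, Ctsq and Ctsr, which belong to the placental cathepsins of rodents, with Atp6ap1l, Atp6v1e2 and Atp6v1fnb.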

How the data were processed

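Per the labels' protocols, RNA of homogenized tissue went into a strand-keeping mRNA library kit and was read by Illumina sequencing. The deposited values are FPKM per gene. The submitters' processing notes name cutadapt, HISAT2, HTSeq and mm10; their versions, the gene annotation used and any strand option were not given. Of 21936 rows, 36 that repeat a symbol were left out. FPKM times exon length (GENCODE M21) came to whole reads (tolerance 0.05) in 97.88 to 98.06% of the values that stand for at most 50 reads.

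Genes were fitted with limma 3.58.1 (R 4.3.3) on log2(FPKM + 1), its trend option on, a scale that understates the changes of low genes. Adjusted p-values follow Benjamini and Hochberg over all 10787 genes tested, those averaging at least 1 FPKM in either group. The fit was tested on simulated data. Where p rests on samples that may not be separate mice, it measures only the spread between them. Intervals cover the spread between samples. Ratios used an exact two-sided permutation test (SciPy 1.17.1).

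The genes and lists were chosen with earlier results of these data known. Values in full were given for genes at an unadjusted p under 0.05 and a fixed panel, with up to 4 genes of smallest p per pathway list. Outside these rules, values per library were also given for Atp6v1d, Atp6v0a1, Atp6v0d1, Ctsf, Ctsh and Ctsz. For marker lists sums are given in place of most single genes, and Cfd and Adgre1 are also given singly. Tfeb, Tfe3 and the genes that share exon bases were chosen after values were seen. Alternatives were a pseudocount of 0.1, no filter, a filter at 5 FPKM, median-of-ratios and upper-quartile scaling, the replicate number as a block, no trend, each library left out, and voom on recovered reads.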

Additional observations from a re-analysis of the deposited data

How the results depend on the processing

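Of the 11 genes at an unadjusted p under 0.05, 5 (Ctss, Ctso, Ctsa, Atp6v1a and Atp6v0e) kept it in all 14 alternatives, and none of the 11 changed sign. None of the 31 passed an adjusted p of 0.05 in any alternative. The count of all genes called, 1 with all libraries, was 0 without a filter, 0 with voom on recovered reads, 0 with the replicate number as a block and 2 with a filter at 5 FPKM, and ran from 0 to 5 when 1 library was left out. At an unadjusted p under 0.05, limma gave 843 genes higher and 2137 lower without a filter, 639 and 1579 with the block, and 715 and 1858 with voom. Genes of the 48 at an unadjusted p under 0.05 numbered 2 to 8 higher and 3 to 6 lower without 1 library, fewest without knockout replicate 2. Over the same fits 402 to 893 of all genes were higher and 1099 to 2060 lower, fewest without the same library. Of the 48, 3 were lower under median-of-ratios and under upper-quartile scaling. With the block 4 were higher and 5 lower, and the limma p of Ctsd and Atp6v0a2 was 0.060 and 0.074. Deviations of same-numbered samples had correlations of 0.065, 0.027 and -0.254 over genes, and those of other pairs ran from -0.231 to 0.182. With 3 samples per group these values cannot show whether the numbers pair the samples. The median log2 fold change of general cathepsins and Lamps was -0.19 under both scalings and -0.31 to -0.20 without 1 library. That of ubiquitous pump subunits, 0.09, was 0.17 under both scalings, 0.069 to 0.135 without 1 library, and -0.0081 for V0 and accessory genes alone, which was the only change of sign among the medians. The median of macrophage-rich cathepsins, -0.31, ran from -0.40 to -0.18 without 1 library. The causes were not tested.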
